A study of Mus musculus with 6 samples.

Results

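The cells described here were Hopx-high neoplastic cells of mouse lung tumours, divided by which product of the Stk11 locus they yielded. They were selected on measured values: at least 500 genes, at most 20% mitochondrial UMIs, at least 1 TdTomato UMI and, per 10000 UMIs (unique molecular identifiers, the molecule counts of droplet sequencing), at least 15 Hopx and fewer than 50 Krt8 and Krt18 together. Of 16017 deposited cells, 950 met this rule. Within them, 242 cells had a GFP UMI and no Stk11 UMI (trap cells) and 265 had a Stk11 UMI and no GFP UMI (Stk11 cells). A further 2 cells had both and 441 had neither, so the comparison covered 507 cells. GFP, Stk11, Hopx, Krt8, Krt18, TdTomato and the UMI total chose the cells, and their values are given as description.

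Sorted tumour cells were profiled from 6 KrasLSL-G12D;Lkb1XTR/XTR;Rosa26LSL-tdTomato mice of a mixed background, young adult when tumours were begun by intratracheal Lenti-Cre, which then grew for 20 weeks. The NonRestored cohort held 3 mice: a tamoxifen-treated male and a vehicle-treated male, both without a FLPo-ERT2 allele, and a vehicle-treated female with it. The Restored cohort held 3 tamoxifen-treated mice with FLPo-ERT2, 2 males and 1 female. Vehicle (corn oil) or tamoxifen in 4 mg doses was given for 2 weeks, and cells bearing CD45, CD31, F4/80 or Ter119 were sorted away. The deposited matrix pools all 6 mice with no link from a cell to its mouse or cohort. The comparison is therefore between 2 sets of cells in 1 pooled sample: it has no replicates and no test, every interval covers counting error only, and the trapped allele, the mouse and the treatment cannot be told apart. The pooled matrix held 266713311 UMIs, and TdTomato-positive cells with low mitochondrial counts numbered 12092.

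Stk11 encodes LKB1, a serine/threonine kinase that works in a complex with the pseudokinases STRADα or STRADβ and the scaffold MO25, and activates AMPK and the AMPK-related kinases, among them the SIK and MARK families. The XTR allele carries an inverted gene trap in the first intron of Stk11. Once Cre turns it, the first exon is spliced to a GFP cassette and the rest of the transcript is lost, and FLPo, when tamoxifen activates it, removes the cassette. In the alveolus, type II (ATII) cells make surfactant and act as progenitors, whereas thin type I (ATI) cells form the gas exchange surface. Hopx, a homeodomain-like transcriptional cofactor, is an ATI marker.

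The annotated Stk11 transcript runs on the plus strand of chromosome 10 from 80115803 to 80130682 (GRCm38, which the deposited build mm10 corresponds to; GENCODE M21). Its exon 1 spans 80115803 to 80116907, its intron 1 spans 80116908 to 80124801 and its exon 2 spans 80124802 to 80124885. Cells were classed by UMI counts of GFP and Stk11, not by reads over the splice that the trap intercepts. That splice is shown with the last 15 bases of exon 1 in lower case and the first 15 bases of exon 2 in capitals.
Stk11 exon 1 to exon 2: ggccaacgtcaagaaGGAGATCCAGCTGCT

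As description of the rule, the 2 products were almost mutually exclusive in Hopx-high cells. A Stk11 UMI was found in 2 of 244 cells with GFP (0.820%, exact binomial 95% interval 0.0994 to 2.93%), against 265 of 706 cells without GFP (37.5%, 34.0 to 41.2%), although the cells with GFP were deeper (median 16283 UMIs) than those without (10308). Detection was sparse: 48.8% of trap cells rested on a single GFP UMI and 61.5% of Stk11 cells on a single Stk11 UMI, with at most 7 and 5 UMIs in a cell. The 441 cells with neither had a median of 8923 UMIs and cannot be assigned. For comparison, 0 of 46 fibroblast-like cells without TdTomato had a GFP UMI. A floor of 3 counts allows a share of up to 6.52%, and the exact binomial upper limit is 7.71%. Of these 46 cells, 6 (13.0%) had a Stk11 UMI, at a median depth of 3482 UMIs. Expression of Stk11 by these cells and free RNA cannot be told apart. Thinned to 5000 UMIs per cell, 13.9% of 841 Hopx-high cells had GFP and 14.6% had Stk11.

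Each trap cell, in order of rising depth, was paired with the nearest unused Stk11 cell whose UMI total lay within 5% of its own. This gave 206 pairs with median depths of 15415 and 15658 UMIs and totals of 3572606 and 3648234 UMIs. In these pairs Hopx, a value of the rule, ranged from 15.1 to 97.5 per 10000 UMIs in trap cells with a median of 27.6, and from 15.04 to 185 in Stk11 cells with a median of 33.0. TdTomato had a median of 93.3 per 10000 in trap cells and 60.9 in Stk11 cells, and ranged from 19.7 to 284 and from 2.69 to 140. Krt8 had medians of 9.91 and 6.80 per 10000, and Krt18 of 12.3 and 9.89. All of these ranges overlapped between the groups. At the Hopx limit the nearest cells with 1 of the 2 products had 15.04 per 10000 inside and 14.98 outside, and 58 cells lay within 1 of the limit. At the keratin limit they had 49.9 inside and 50.5 outside, and 18 cells lay within 2 of it.

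The label of the cells was borne out by ATI markers that the rule did not use. Ager, the receptor that marks ATI membranes, was at 5901 CPM (UMI counts scaled to a common library total) in the Hopx-high cells, 1067 CPM in the 9960 Hopx-low tumour cells and 1679 CPM in the 1182 keratin-high cells. Rtkn2, a further ATI marker, was at 177, 3.65 and 11.1 CPM. Pdpn (podoplanin, an ATI surface glycoprotein) was at 52.4, 2.67 and 2.77 CPM. The surfactant gene Sftpc was still present in 100% of Hopx-high cells at 47548 CPM, against 134613 CPM in Hopx-low cells. These figures describe cells chosen on Hopx and are no test.

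Among 7067 genes with at least 100 UMIs over both matched groups and outside the rule (counted genes), 411 (5.82%) were at least 1.5-fold higher in trap cells and 184 (2.6%) at least 1.5-fold higher in Stk11 cells, and 63 and 51 differed at least 2-fold. The counting interval excluded a ratio of 1 for all 411 and for 183 of the 184. The median gene stood at a ratio of 1.09 (log2 0.12), and Sftpc alone took 138554 of the trap cells' UMIs and 240830 of the Stk11 cells'. Relative to the median gene, the counts were 220 higher in trap cells and 288 higher in Stk11 cells, so which direction held more genes turned with the scaling. The remaining 6472 genes (91.6%) lay within 1.5-fold.

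**Figure D1:**
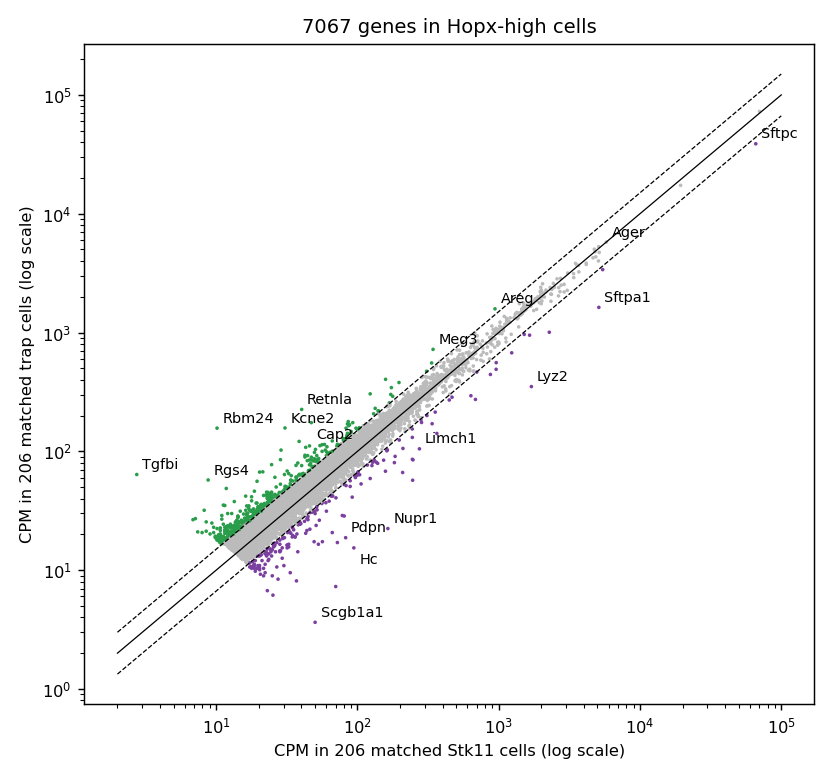
Level of 7067 genes in 206 matched trap cells (y axis, CPM, log scale) against 206 matched Stk11 cells (x axis, CPM, log scale), with the line of equality and dashed lines at 1.5-fold. Green points (411) were at least 1.5-fold higher in trap cells and purple points (184) at least 1.5-fold higher in Stk11 cells; Tgfbi and Rbm24 stood farthest above the line, Scgb1a1, Lyz2 and Sftpa1 well below it.

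The genes with the largest ratios toward trap cells were led by Tgfbi, a secreted matrix protein induced by TGF-β (chromosome 13, 56609523 to 56639562). Tgfbi was at 63.8 CPM in trap cells (Poisson 95% interval 55.8 to 72.7) and 2.74 CPM in Stk11 cells (1.31 to 5.04), a ratio of 23.3 (exact conditional 95% interval 12.4 to 49.2). It gave a UMI in 37.4% of trap cells and 2.91% of Stk11 cells, with highest single-cell values of 4.21 and 1.73 per 10000 UMIs and medians of 0 in both groups. Most trap cells therefore yielded no Tgfbi UMI at this depth.

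Rbm24, an RNA-binding regulator of splicing, was at 157 CPM (144 to 170) against 10.1 CPM (7.14 to 14.0), 15.5-fold higher in trap cells (11.1 to 22.2). Its per-cell level ran from 0 to 9.21 per 10000 UMIs in trap cells with a median of 0.988, and from 0 to 4.12 in Stk11 cells with a median of 0. It was detected in 68.4% and 11.2% of cells, the widest separation in detection among the genes described here apart from GFP and Stk11, although the ranges overlapped. Kcne2, an accessory subunit of potassium channels, was at 157 and 30.7 CPM (ratio 5.12, 4.18 to 6.33) and in 64.1% and 32.0% of cells. Cap2, an actin regulator that lies beside Rbm24 on chromosome 13 (Rbm24 at 46418434 to 46431095, Cap2 at 46501848 to 46650281, both on the plus strand), was at 174 and 47.1 CPM (ratio 3.70, 3.12 to 4.40) and had per-cell medians of 1.43 and 0 per 10000 UMIs.

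Others of the leading genes were carried by fewer cells. Rgs4, a regulator of G-protein signalling, had a ratio of 6.54 (4.49 to 9.82) with a UMI in 21.4% and 7.77% of cells. Ptprn, a protein of dense-core secretory vesicles, had a ratio of 4.13 (2.94 to 5.91), and Gpx2, a glutathione peroxidase, one of 3.88 (2.48 to 6.29). In the pairs of cells with Sftpc under 500 per 10000 UMIs, described below, Gpx2 had 40 UMIs in each group (ratio 1.02, 0.644 to 1.63). Tshb, the β chain of thyrotropin, had 97 and 26 UMIs (ratio 3.81, 2.45 to 6.12), and the predicted gene Gm20554 had a ratio of 3.88 (2.58 to 6.01). Retnla, a secreted resistin-like protein, had a ratio of 5.59 (4.69 to 6.71), but the same 18.9% of cells gave a UMI in each group and a single cell held 37.0% of the trap cells' 805 UMIs and another 42.2% of the Stk11 cells' 147.

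Toward Stk11 cells, several of the genes with the largest ratios encode alveolar or secreted products, and others do not. Lyz2, the lysozyme of ATII cells and phagocytes, was at 1703 CPM in Stk11 cells (1661 to 1746) and 351 CPM in trap cells (332 to 371), 4.85-fold higher in Stk11 cells (4.57 to 5.16). Its per-cell level ran from 0 to 246 per 10000 UMIs in Stk11 cells with a median of 1.11, and from 0 to 79.9 in trap cells with a median of 0, so that a few cells held most of it: 1 trap cell gave 34.6% of that group's UMIs and 1 Stk11 cell 13.1%. Free RNA may add UMIs to any droplet, and Lyz2 stood at 181 CPM in the fibroblast-like cells without TdTomato.

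Hc, which encodes complement component C5, was 6.12-fold higher in Stk11 cells (4.60 to 8.30), at 94.3 against 15.4 CPM. Pdpn was 4.40-fold higher in Stk11 cells (3.37 to 5.82), at 82.5 CPM (73.4 to 92.4) against 18.8 CPM (14.5 to 23.8). It had a UMI in 39.8% of Stk11 cells and 13.6% of trap cells, and its highest values were 7.28 and 3.74 per 10000 UMIs. Cyp4b1, a lung cytochrome P450, was 4.22-fold higher (3.18 to 5.67) and Cbr2, a carbonyl reductase, 4.31-fold higher (3.69 to 5.04). In the pairs divided by Sftpc, described below, Cyp4b1 was 5.40-fold higher in Stk11 cells (3.84 to 7.76) under 500. At 500 or more Cyp4b1 was 1.20-fold higher (0.674 to 2.15), on 24 UMIs in trap and 29 in Stk11 cells. Nupr1, a small stress-induced nuclear protein, was 7.33-fold higher in Stk11 cells (5.80 to 9.38), with 22.9% of that group's 599 UMIs in 1 cell. Bex2 and Bex4, small X-linked proteins, were 9.64-fold (6.43 to 15.04) and 4.10-fold higher (2.55 to 6.85), and Cox6a2, a cytochrome oxidase subunit, 4.56-fold higher (3.03 to 7.06). Scgb1a1, the club cell secretoglobin, had the largest ratio toward Stk11 cells, 13.8 (7.86 to 26.4), at 50.2 and 3.64 CPM, where the shallower fibroblast-like cells held 84.2 CPM. The part of free RNA in this ratio was not tested.

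Cells with neither GFP nor Stk11 took no part in the split, and for 17 of these 20 leading genes their level lay between those of the trap and Stk11 cells. Tgfbi was at 15.7 CPM in them, Rbm24 at 57.3, Lyz2 at 544 and Pdpn at 62.2. The exceptions were Retnla, Gpx2 and Bex4. The 20 genes were picked for their ratios, and a mix of trap and Stk11 cells would lie between, so this count is description only. Among the genes named above, Ptprn, Gpx2, Tshb, Cap2, Hc and Cox6a2 overlap another gene of the matrix, as do Rtkn2, Limch1, Slc34a2, Meg3, Cab39l and Cebpd below, and Bex2 and Bex4 belong to a family of similar genes, so part of their UMIs may be shared. The cells with neither product were shallower, and each value pools the UMIs of all cells of a group, so deeper cells weigh more.

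**Figure D2:**
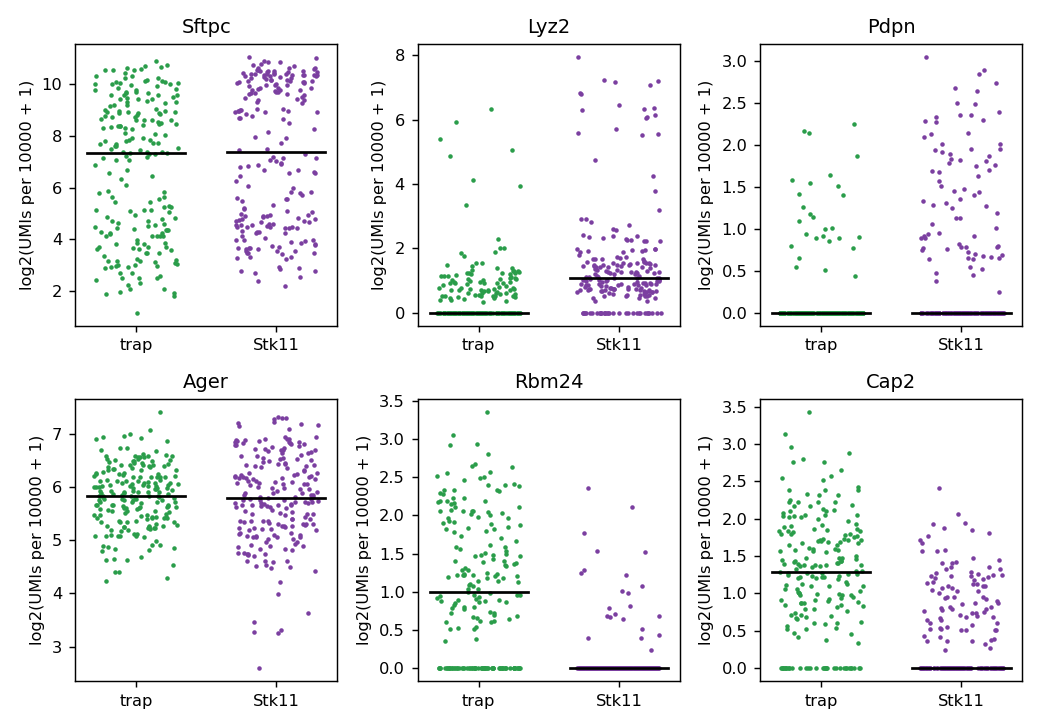
Level per cell of 6 genes, as log2(UMIs per 10000 + 1), in 206 trap and 206 Stk11 cells of the matched pairs; each point is 1 cell and black lines are medians. Sftpc was spread over a low and a high band in both groups, with medians of 163 and 165 per 10000, Lyz2 and Pdpn were detected in more Stk11 cells, Rbm24 and Cap2 in more trap cells, and Ager had about the same level in both.

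The alveolar identity genes were then taken as groups. Of the 18 listed ATII genes, all of which passed the UMI minimum, 11 were at least 1.5-fold higher in Stk11 cells (2.6% of all counted genes) and 0 in trap cells (5.82% of all counted genes), with a median log2 ratio of -0.75 against 0.12 over all 7067 genes. The counts of the lists that follow in these 206 pairs are to be read against the same shares of 2.6% and 5.82%. Besides Lyz2 and Hc, Sftpa1 (surfactant protein A) was 3.14-fold higher in Stk11 cells (3.05 to 3.23), Chil1, a chitinase-like protein, 2.86-fold (2.51 to 3.26), the phosphate transporter Slc34a2 2.16-fold (2.01 to 2.33) and the chemokine Cxcl15 1.96-fold (1.85 to 2.07). The surfactant genes Sftpc (1.70-fold, 1.69 to 1.71) and Sftpb (1.61-fold, 1.57 to 1.65), the lamellar body gene Lamp3 (1.75-fold, 1.51 to 2.04), Lpcat1 of surfactant lipid synthesis (1.65-fold, 1.52 to 1.79) and the fatty acid-binding Fabp5 (1.90-fold, 1.41 to 2.59) were closer. Fabp5 was detected in 13.6% of trap and 11.2% of Stk11 cells, with 22% of the Stk11 cells' UMIs in 1 cell, and it turned under 2 of 17 alternatives, to a log2 ratio of 0.16 in Xist-positive cells and 2.01 in pairs with Sftpc under 500 per 10000 UMIs. Cxcl15, Lamp3 and Lpcat1 fell short of 1.5-fold under 2 of 17 alternatives and Sftpb under 1. Lpcat1, unlike Lyz2, was in most cells of both groups (82.5% of trap and 90.8% of Stk11 cells).

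The ATII difference did not extend evenly over the cells. Sftpc had almost the same median in both groups, 163 per 10000 UMIs in trap cells and 165 in Stk11 cells, and before matching the medians were 183 and 115. Lower quartiles were 16.9 and 22.6 per 10000 in the matched cells, and the fibroblast-like cells held Sftpc at 1989 CPM. The upper quartiles were 516 and 1055. Cells with at least 500 Sftpc per 10000 UMIs made up 53 of 206 trap cells (25.7%, exact binomial 95% interval 19.9 to 32.3%) and 86 of 206 Stk11 cells (41.7%, 34.9 to 48.8%), and 27.7% and 35.1% (intervals 22.1 to 33.8% and 29.4 to 41.2%, which overlap) before matching.

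The cells were paired again within each side of that limit, a division chosen after the values were seen and resting on Sftpc itself, whose values are then description. Among the 124 pairs under 500, the ATII median was 0.26 over the 18 genes and 0.22 over the 15 with at least 100 UMIs there. Of those 15, 3 were at least 1.5-fold higher in trap cells and 2 in Stk11 cells, against 4.32% and 3.69% of the 5208 genes counted in these pairs. There Sftpc was 1.55 times as high in trap cells (1.52 to 1.57), Lyz2 1.55 times (1.31 to 1.83) and Slc34a2 1.38 times (1.13 to 1.70), whereas Sftpa1 remained lower in trap cells (ratio 0.469, 0.436 to 0.504). Hc (22 and 17 UMIs in trap and Stk11 cells), Chil1 (83 and 58) and Bex4 (8 and 7) had log2 ratios of 0.41, 0.55 and 0.23 there. Among the 59 pairs at 500 or more, the ATII median was -0.46 over the 18 genes, 7 of the 17 with at least 100 UMIs were at least 1.5-fold higher in Stk11 cells and 0 in trap cells (2.49% and 7.38% of 3415 counted genes), and Lyz2 (0.271, 0.250 to 0.293), Hc (0.146, 0.0938 to 0.220) and Sftpa1 (0.429, 0.414 to 0.444) were lower in trap cells. Sftpb, with ratios of 0.644 under 500 and 0.743 at 500 or more, was lower in trap cells in both sets of pairs, as was Sftpa1.

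Of the 18 listed ATI genes, 17 passed the UMI minimum, and 6 of them were at least 1.5-fold higher in Stk11 cells and 0 in trap cells (2.6% and 5.82% of all counted genes), with a median log2 ratio of -0.37. The 6 were Pdpn, Limch1 (an actomyosin regulator, 2.62-fold, 2.32 to 2.95), Rtkn2 (1.98-fold, 1.75 to 2.25), the chloride channel protein Clic5 (1.72-fold, 1.63 to 1.82), the semaphorin Sema3e (1.61-fold, 1.35 to 1.91) and the proteoglycan Spock2 (1.53-fold, 1.27 to 1.84), which fell short of 1.5-fold under 7 of 17 alternatives (Sema3e under 1). Clic5 was in nearly all cells, from 0 to 20.9 per 10000 UMIs in trap cells (median 5.17) and from 1.12 to 29.9 in Stk11 cells (median 9.05), and the ranges overlapped. Hopx, an ATI marker used by the rule, had the higher median in the Stk11 cells of these pairs. In 168 pairs matched on UMI total and on Hopx level, the ATI median was -0.20 and the ATII median -0.90.

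Of the other 11 counted ATI genes, Col4a3 had a ratio of 0.672 (0.622 to 0.727), Cav2 0.766 (0.690 to 0.849), Col4a4 0.772 (0.714 to 0.835), Akap5 0.806 (0.763 to 0.851) and Gprc5a 0.863 (0.807 to 0.922), and these 5 were chosen after their values were seen because their intervals lay below 1. The 4 with the most UMIs were close to 1. Ager had a ratio of 0.998 (0.979 to 1.02), with medians of 56.4 and 54.6 per 10000 UMIs in trap and Stk11 cells. The water channel Aqp5 had a ratio of 1.06 (1.03 to 1.10), the tetraspan protein Emp2 1.03 (0.998 to 1.07) and the junction protein Lmo7 1.07 (1.03 to 1.11). In the pairs divided by Sftpc, the ATI median was -0.62 under 500, where 10 of 17 genes were at least 1.5-fold higher in Stk11 cells and 0 in trap cells (3.69% and 4.32% of the 5208 genes counted in these pairs). At 500 or more it was -0.16, and 6 of the 15 genes with at least 100 UMIs were higher in Stk11 cells and 0 in trap cells (2.49% and 7.38% of 3415). Ager changed side, with ratios of 0.832 (0.812 to 0.853) under 500 and 1.21 (1.16 to 1.26) at 500 or more, as did Aqp5, with 0.909 (0.874 to 0.946) and 1.14 (1.08 to 1.20). Pdpn had ratios of 0.235 (0.161 to 0.334) and 0.300 (0.184 to 0.473) in the 2 sets of pairs, and Clic5 of 0.498 (0.464 to 0.534) and 0.517 (0.459 to 0.582).

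**Figure D3:**
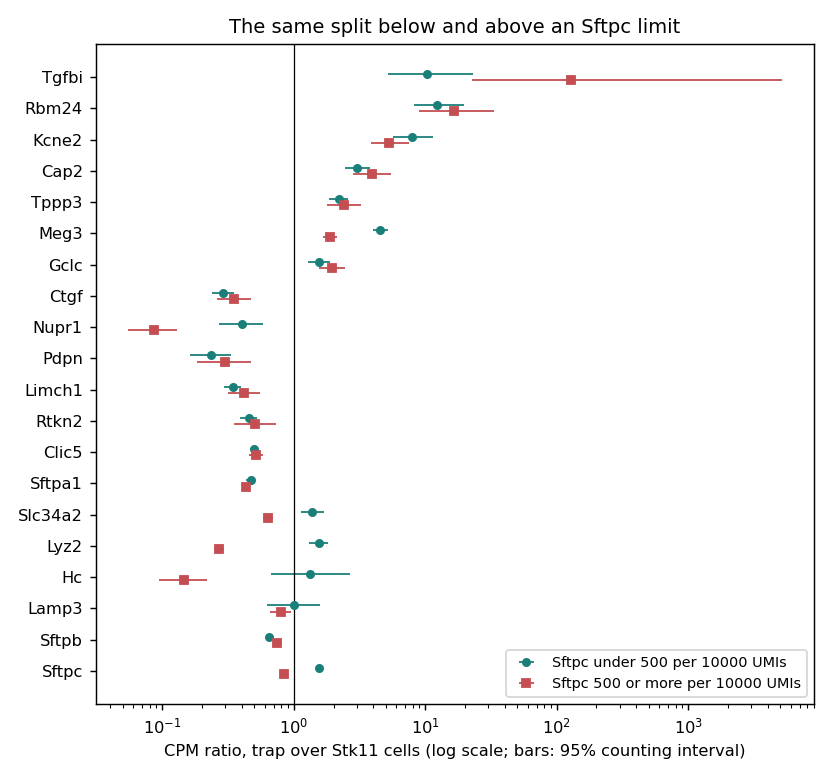
CPM ratio of trap over Stk11 cells (log scale, bars show the 95% counting interval) for 20 genes, in 124 pairs of cells with Sftpc under 500 per 10000 UMIs (circles) and 59 pairs with 500 or more (squares). Tgfbi, Rbm24, Kcne2 and Cap2 lay to the right of 1 and Pdpn, Limch1, Rtkn2, Clic5 and Sftpa1 to the left in both sets, while Sftpc, Lyz2 and Slc34a2 changed side. For Lyz2 few trap cells may carry the ratio under 500, which was not tested.

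Genes of the injury-associated transitional state were mixed. Of 11 counted, against 5.82% and 2.6% of all genes, 2 were at least 1.5-fold higher in trap cells, the tight junction gene Cldn4 (1.99-fold, 1.59 to 2.50) and the EGFR ligand Areg (1.68-fold, 1.61 to 1.76), and 1 in Stk11 cells, the secreted chaperone Clu (1.74-fold, 1.67 to 1.82). Areg ran from 0 to 117 per 10000 UMIs in trap cells (median 10.0) and from 0 to 106 in Stk11 cells (median 3.49). For Clu, 21.5% of the Stk11 cells' UMIs came from 1 cell and the medians were 4.42 and 4.48 per 10000, so the difference lay in few cells. Areg fell short of 1.5-fold under 3 of 17 alternatives, Cldn4 under 1, and Clu under 2 and turned in 1.

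All 3 counted genes of the imprinted list were at least 1.5-fold higher in trap cells. Meg3, a maternally expressed long noncoding RNA, was at 722 and 343 CPM (ratio 2.10, 1.97 to 2.25), with per-cell medians of 0.800 and 0 per 10000 UMIs. Cdkn1c, a cyclin-dependent kinase inhibitor, was at 89.6 and 42.5 CPM (ratio 2.11, 1.73 to 2.57), and fell short of 1.5-fold under 1 of 17 alternatives. Dlk1, a paternally expressed ligand of the Notch family, had a ratio of 1.91 (1.45 to 2.52), but 1 cell in each group held 62.7% and 73.2% of its UMIs. Its log2 ratio turned to -1.91 in cells with at least 30 Hopx per 10000 and to -0.53 in Xist-positive cells. Of the ciliated list only Tppp3, a tubulin-binding protein, was counted, 2.07-fold higher in trap cells (1.80 to 2.38) and detected in 70.4% and 42.2% of cells, whereas Foxj1, which defines ciliated cells, had 3 and 13 UMIs.

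In energy metabolism 1 of 12 counted glycolysis genes, Eno1 (enolase), passed 1.5-fold, at 230 and 133 CPM (ratio 1.72, 1.54 to 1.93; short of it under 1 of 17 alternatives), and the list's median log2 ratio was 0.43 against 0.12 for all genes. Pkm (pyruvate kinase) had a ratio of 1.42 (1.32 to 1.52) and Ldha (lactate dehydrogenase) 1.22 (1.15 to 1.30). Of 14 nuclear and 13 mitochondrially encoded respiratory chain genes, 0 passed in either direction, with medians of 0.21 and 0.02. In the sterol and fatty acid list Insig1, a regulator of sterol synthesis, was 1.81-fold higher in Stk11 cells (1.34 to 2.47) and the transcription factor gene Srebf2 1.54-fold higher (1.15 to 2.05). Both had fewer than 100 UMIs in trap cells, and they fell short of 1.5-fold under 3 and 2 of 17 alternatives.

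Signalling around LKB1 was measured with few UMIs. Of the partners, the MO25 isoform gene Cab39l was 1.86-fold higher in trap cells (1.45 to 2.38; 189 and 104 UMIs; short of 1.5-fold under 1 of 17 alternatives), while Cab39, the other MO25 gene, had a ratio of 0.888 (0.781 to 1.01) and Stradb 1.30 (0.888 to 1.92). Strada, with 49 and 47 UMIs, had a ratio of 1.06 (0.699 to 1.62). None of the 3 counted AMPK subunit genes passed 1.5-fold in either direction: the γ subunits Prkag1 and Prkag2 had ratios of 1.04 (0.849 to 1.26) and 1.12 (0.757 to 1.65), and Prkab1 1.05 (0.799 to 1.38). The catalytic subunit genes Prkaa1 and Prkaa2 had 30 and 26 and 20 and 20 UMIs.

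Of 12 AMPK-related kinases, 6 were counted and 0 passed 1.5-fold. Sik1 had a ratio of 1.01 (0.861 to 1.18), Sik3 1.19 (0.890 to 1.60), Mark2 1.37 (1.15 to 1.63), Mark3 1.23 (1.05 to 1.45), Nuak2 1.46 (1.02 to 2.09) and Snrk 1.10 (0.857 to 1.43). Sik2, Mark1, Mark4, Nuak1, Brsk1 and Brsk2 had too few UMIs. The CRTC coactivators, which SIK kinases hold in the cytoplasm, had ratios of 1.02 for Crtc1 (0.531 to 1.97), 0.970 for Crtc2 (0.606 to 1.55) and 1.00 for Crtc3 (0.681 to 1.48). Each of these intervals includes ratios on both sides of 1. Among 10 CREB target genes, 1 was higher in trap cells (Pde4b, a cyclic AMP phosphodiesterase, 1.94-fold, 1.42 to 2.69) and 1 in Stk11 cells (Per1, 1.52-fold, 1.09 to 2.14), beside 5.82% and 2.6% of all genes, so these counts are no result about the list. Per1 fell short of 1.5-fold under 10 of 17 alternatives and Pde4b under 3.

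Of 5 C/EBP genes, whose products are basic leucine zipper factors with known roles in alveolar differentiation, only Cebpd passed 1.5-fold, at 127 CPM in Stk11 cells and 75.9 CPM in trap cells (1.67-fold, 1.43 to 1.95). Cebpd fell short of 1.5-fold under 7 of 17 alternatives, and within the pairs divided by Sftpc its ratios were 0.763 (0.614 to 0.946) under 500 and 0.976 (0.757 to 1.26) at 500 or more. Cebpa, the member most tied to ATII maturation, had a ratio of 1.11 (0.981 to 1.26), and of 1.56 (1.25 to 1.96) and 1.20 (1.01 to 1.43) in these divided pairs. The other ratios were Cebpb 1.07 (0.989 to 1.15), Cebpg 1.03 (0.855 to 1.24) and Ddit3 0.847 (0.640 to 1.12). The lung lineage factor Nkx2-1 had a ratio of 1.17 (1.10 to 1.24), and 0 of 4 lineage factors passed. Among glucocorticoid-responsive genes 2 of 5 were higher in Stk11 cells, Klf15 (1.94-fold, 1.33 to 2.86) and Per1, which were short of 1.5-fold under 2 and 10 of 17 alternatives.

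A C/EBP motif, TTGCNNAA, was searched on both strands (as TTGCNNAA and its reverse complement TTNNGCAA, which can overlap) in the RefSeq promoters (GRCm38.p6, 250 bases before to 50 after a start site, the first promoter listed for a gene), which 140 of the 184 named genes matched. It was present in 10.8% of 27025 promoters, in 7.71% of the 5616 matched counted genes, in 23 of 145 genes at least 1.5-fold higher in Stk11 cells (15.9%) and in 22 of 314 at least 1.5-fold higher in trap cells (7.01%). Matches among the named genes past 1.5-fold are listed without those of a chromosome that was left out, so the listing may be incomplete. The motif is in capitals.
Slc34a2, chromosome 5 plus strand, motif at 53049305 to 53049312: cgccggcctctTTGCGCAAcaccttcgctg
Bex2, chromosome X minus strand, motif at 136068391 to 136068398: agggtgtggtgTTGCTGAAccaaggagcat
Per1, chromosome 11 plus strand, motif at 69098925 to 69098932: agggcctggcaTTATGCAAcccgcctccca
Rgs4, chromosome 1 minus strand, motif at 169747852 to 169747859: aggtagaaacgTTAAGCAAaacctcatttt
Retnla, chromosome 16 plus strand, motif at 48842475 to 48842482: ttcacaagaaaTTGCTAAAcagtacatgtg
Slc34a2, Bex2 and Per1 were higher in Stk11 cells and Rgs4 and Retnla in trap cells. A match says only that these letters are in the window.

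In the remaining lists few genes passed, and single calls among so few genes are no result about a list beside the 5.82% and 2.6% of all genes. Of 5 YAP target genes, 1 was higher in Stk11 cells, Ctgf, a matricellular growth factor (3.15-fold, 2.72 to 3.66; 209 and 66.3 CPM). Of 4 NRF2 targets, 1 was higher in trap cells, Gclc, the catalytic subunit of glutathione synthesis (2.00-fold, 1.74 to 2.30), whose log2 ratio was 0.10, short of 1.5-fold, in cells with a Y-linked UMI and no Xist UMI. Of 9 basement membrane and integrin genes, only the integrin subunit Itgav passed, 1.53-fold higher in trap cells (1.28 to 1.82), and it fell short of 1.5-fold under 8 of 17 alternatives. Of 5 hypoxia genes, Ankrd37 was 1.56-fold higher in trap cells (1.17 to 2.08) and Ero1l 1.52-fold higher in Stk11 cells (1.07 to 2.19). Ankrd37 fell short of 1.5-fold under 6 of 17 alternatives, and Ero1l under 4 and turned in 1. In the AP-1 (10 counted), p53 (8), RAS-MAPK (6), MHC class I (8) and MHC class II (7) lists 0 genes passed in either direction, with medians of -0.28, -0.06, 0.05, -0.01 and -0.17. The only counted progression factor, Sox4, had a ratio of 1.30 (1.19 to 1.42). Of the club list, Cyp2f2, a club cell cytochrome P450, was counted besides Scgb1a1, at 20.3 CPM in Stk11 cells and 10.4 CPM in trap cells (ratio 0.511, 0.334 to 0.768), and fell short of 1.5-fold under 3 of 17 alternatives. In the pairs divided by Sftpc, Cyp2f2 had a ratio of 0.804 (0.330 to 1.91; 11 and 14 UMIs) under 500. At 500 or more it had a ratio of 2.11 (0.986 to 4.78; 23 and 11 UMIs).

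**Figure D4:**
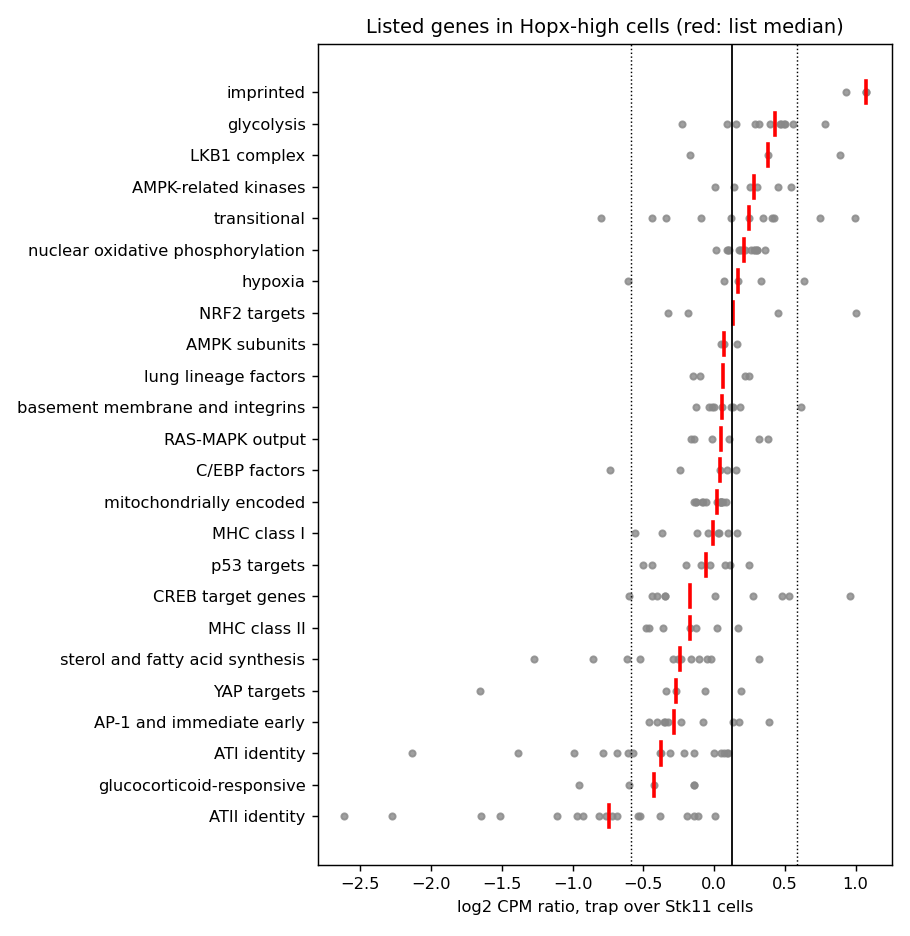
log2 CPM ratio of trap over Stk11 cells (x axis) for each counted gene (grey points) of lists with at least 3 counted genes, with the list median in red, the median of all 7067 genes as a solid line at 0.12 and dotted lines at 1.5-fold. The ATII list had the lowest median (-0.75) and the imprinted list, of 3 genes, the highest (1.07).

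Cycling cells were nearly absent from both groups. After thinning to 5000 UMIs, 0 of 204 trap cells and 0 of 204 Stk11 cells had 3 or more UMIs over 10 proliferation genes. A floor of 3 counts allows a share of up to 1.47% in each, and the exact binomial upper limit is 1.79%. Among the Hopx-low cells 1.75% of 9126 passed (1.49 to 2.04%) and among the keratin-high cells 2.57% of 1089 (1.72 to 3.69%). Unthinned, 1 of 206 trap cells (0.485%) and 2 of 206 Stk11 cells (0.971%) passed.

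Markers of other cell types differed by list. Over the 206 cells of each group the immune list gave 4 and 2 UMIs, the endothelial list 64 and 23 and the fibroblast list 32 and 23. The club list gave 50 and 257 UMIs, with 3 or more in 5 trap and 28 Stk11 cells, and the defining club genes Scgb3a1 and Scgb3a2 were at 0 in both groups. The ciliated list gave 666 and 418 UMIs, with 3 or more in 82 and 44 cells, of which Tppp3 held 636 and 314. Without cells holding 3 or more UMIs of the immune, endothelial or fibroblast list, 412 genes were higher in trap cells and 183 in Stk11 cells, and the part of club or ciliated cells was not tested. The endothelial genes Ramp2, Cldn5 and Cdh5 had 25, 10 and 4 UMIs in trap cells, all from 1 cell. Cells with Xist and no Y-linked UMI were 25.7% of trap cells and 34.0% of Stk11 cells, and cells with a Y-linked UMI and no Xist 66.0% and 53.9% of cells. The Y-linked gene Eif2s3y had a ratio of 1.65 (1.33 to 2.04), with 1.01 (0.768 to 1.32) in the pairs with Sftpc under 500 and 3.75 (2.20 to 6.70) at 500 or more. It fell short of 1.5-fold under 4 of 16 alternatives. Within Xist-positive cells alone (51 pairs) the ATII and ATI medians were -0.68 and -0.24, and within Y-positive cells alone (111 pairs) -0.66 and -0.49.

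The same split was made in the other tumour cells to see where the Hopx-high cells differed, with values set side by side and no test. Hopx-low cells gave 2465 pairs and keratin-high cells 162 pairs, and GFP without Stk11 was found in 24.9% and 54.3% of them, against 25.5% of Hopx-high cells. Rbm24 had nearly the same ratio in all 3 states, 15.5 (11.1 to 22.2) in Hopx-high, 14.3 (12.4 to 16.6) in Hopx-low and 13.5 (8.63 to 22.1) in keratin-high cells. Cap2 had ratios of 3.70, 5.75 and 3.86, and Ctgf of 0.318, 0.309 and 0.234. Tgfbi was at 23.3 (12.4 to 49.2), 5.88 (5.67 to 6.11) and 7.86 (6.58 to 9.45).

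Other genes were farther from 1 in the Hopx-high cells. Pdpn had ratios of 0.227 (0.172 to 0.297), 0.641 (0.500 to 0.820) and 0.501 (0.229 to 1.03), and Lyz2 of 0.206 (0.194 to 0.219), 0.497 (0.495 to 0.499) and 0.654 (0.612 to 0.698). The ATI median was -0.37 in Hopx-high, 0.45 in Hopx-low and -0.23 in keratin-high cells, and the ATII median was -0.75, -0.24 and 0.45. The median of all counted genes was 0.12, 0.19 and 0.03 in the same order. Ager, level in Hopx-high cells, was 1.70 times as high in trap as in Stk11 cells of the Hopx-low state (1.68 to 1.72). Of the 411 genes higher in Hopx-high trap cells, 160 were at least 1.5-fold higher in trap cells of the Hopx-low state as well, where 10% of 12370 counted genes were, and 131 in those of the keratin-high state, where 6.18% of 7754 were. Of the 183 genes higher in Stk11 cells with an interval that excluded 1, 60 and 56 were also higher in Stk11 cells of the other states, where 6.88% and 5.04% of counted genes were.

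**Figure D5:**
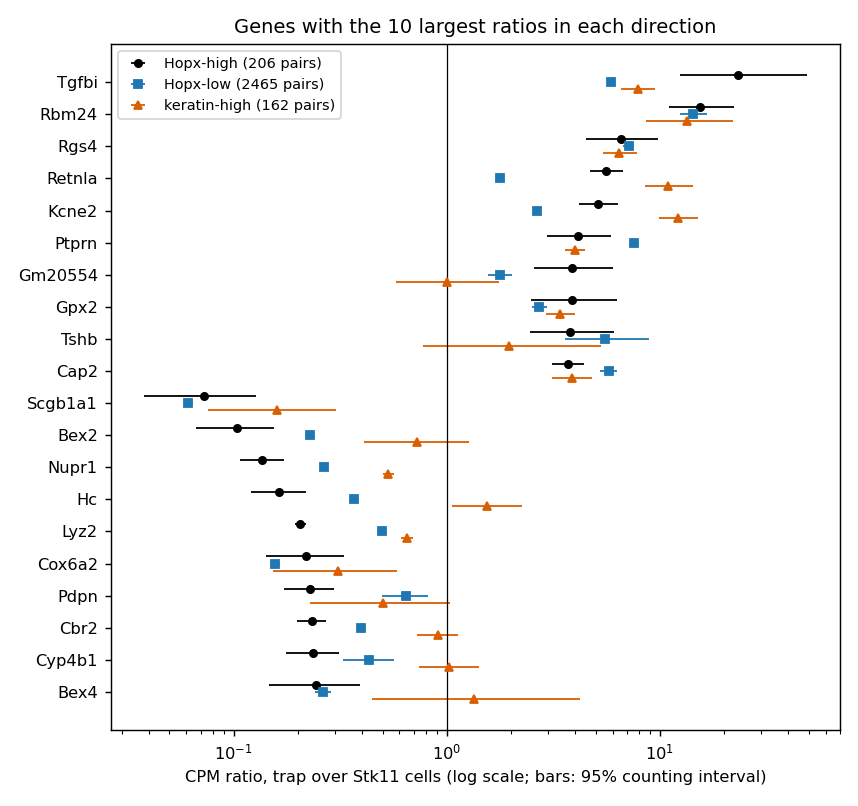
CPM ratio of trap over Stk11 cells (log scale, bars show the 95% counting interval) for the 20 genes with the largest ratios in Hopx-high cells (circles, 206 pairs), with the same ratios in Hopx-low (squares, 2465 pairs) and keratin-high cells (triangles, 162 pairs). Rbm24 and Rgs4 had intervals that overlapped in all 3 states, while Hc lay below 1 in Hopx-high and Hopx-low cells and at 1.54 in keratin-high cells.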

How the data were processed

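The authors processed the 10x Genomics 3′ libraries with Cell Ranger 3.0.2 against mm10 with added GFP and TdTomato sequences and deposited 1 pooled matrix of UMI counts (31055 features by 16017 cells). Cell barcodes were not used here, doublets were not called, and 0 columns were left unused. The members and the gene lists were chosen with earlier results of these data known. Counts were summed over the cells of each group, scaled to CPM and compared as ratios. Intervals are exact at 95% (Poisson for levels, conditional Clopper-Pearson for ratios, binomial for shares) and cover counting error only. A gene was counted with at least 100 UMIs over both groups; repeated symbols such as Aldoa were left out of the lists. Folds against 0 used a floor of 3 counts. Named genes were those of the rule, list genes past 1.5-fold whose interval excluded 1 (otherwise up to 4 per list with the most UMIs), the 10 largest ratios in each direction, and all genes of the LKB1, AMPK, CRTC and C/EBP lists. Shares were thinned with a fixed seed. Gene coordinates came from GENCODE M21, which 30934 feature identifiers matched, and promoters from RefSeq. The code was tested on simulated counts. Alternatives covered matching, scaling, thinning, the limits of the rule, the UMI minimum, the fold and the sex of the cells. Python 3.11.15, numpy 2.4.6, scipy 1.17.1 and pandas 2.3.3 were used. The counts of the sterol and fatty acid list, and a gene of it, are not reported here.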

Additional observations from a re-analysis of the deposited data

Results flagged for a closer look

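Among the named genes with at least 100 UMIs in each comparison, 5 had a ratio past 1.5-fold in Hopx-high cells and past 1.5-fold in the opposite direction in another tumour cell state, with both counting intervals excluding 1. These differences between states were not tested, since the cells come from 1 pooled sample. Spock2 had a ratio of 0.655 in Hopx-high and 1.80 in Hopx-low cells. In keratin-high cells Hc had a ratio of 1.54 against 0.163 in Hopx-high cells, Lamp3 2.14 against 0.570, Slc34a2 2.42 against 0.462 and Fabp5 8.39 against 0.526. These 4 are ATII genes, and among Hopx-high cells with Sftpc under 500 per 10000 UMIs their ratios were 1.32, 0.998, 1.38 and 4.02, of which Hc, Lamp3 and Fabp5 rested on fewer than 100 UMIs.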

How the results depend on the processing

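No paired analysis was possible because no cell could be traced to a mouse, and leaving out a mouse was not possible for the same reason. Of 57 named genes past 1.5-fold, 22 stayed past it and 47 kept their direction under every alternative counted. The pairs with Sftpc at 500 or more were not among these alternatives. There Cyp4b1, one of the 22, had a ratio of 0.833 (0.464 to 1.48). Cyp2f2 (2.11, 0.986 to 4.78) and Per1 (1.05, 0.587 to 1.87), of the 47, lay on the trap side there, with intervals that include 1. Genes higher in trap and in Stk11 cells numbered 411 and 184, and 148 and 102 after thinning to 5000 UMIs (3184 genes counted), 220 and 288 relative to the median gene, 730 and 293 with a minimum of 50 UMIs, 115 and 76 with 300, and 63 and 51 at 2-fold. Genes higher in trap cells numbered 191 with at least 30 Hopx per 10000, and those higher in Stk11 cells 114 with at least 2 UMIs of GFP or Stk11 and 103 in Xist-positive cells, each with fewer cells and genes. Without cells with Sftpc at 500 or more per 10000, an alternative chosen after seeing the data, 225 genes were higher in trap cells, the ATII median was 0.26 and 7 genes reversed: Hc (log2 ratio 0.41), Lyz2 (0.63), Bex4 (0.23), Sftpc (0.63), Slc34a2 (0.47), Chil1 (0.55) and Fabp5 (2.01). Gpx2 was then at 0.034, and the Lyz2 value may rest on few trap cells, as described above. Ero1l reversed after thinning (0.074), Dlk1 with at least 30 Hopx (-1.91), and Fabp5 (0.16), Clu (0.28) and Dlk1 (-0.53) in Xist-positive cells. Retnla was at 0.37 with at least 30 Hopx. Over the alternatives, Tgfbi ranged from 2.79 to 5.74, Rbm24 from 3.43 to 4.30, Pdpn from -3.28 to -1.65 and Clic5 from -1.01 to -0.60. Outside these alternatives, Tgfbi was at 7.01 in the pairs with Sftpc at 500 or more, on 128 and 1 UMIs. Genes under 100 UMIs, among them 3 of 6 AMPK subunit genes, could not be called at this depth.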
